A study of Mus musculus with 6 samples.

Results

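The regions described here are target clusters of the microRNA (miRNA) miR-124-3p that lie at the 3’ ends of protein-coding genes in mouse brain. A target cluster is a stretch of mRNA covered by chimeric reads, each of which joins a miRNA to a piece of the RNA it was bound to in the same AGO2 complex. Members were all clusters deposited under miR-124-3p that overlapped, on the same strand, the last 1000 nt of a RefSeq protein-coding gene on mm10. The rule found 1604 clusters in WT, 1482 in the first *Mov10* Deletion library (replicate 1, DEL1) and 760 in the second (replicate 2, DEL2), together 3846 of the 66068 cluster and miRNA assignments deposited. The data came from AGO2 chimeric eCLIP (enhanced UV crosslinking and immunoprecipitation, IP) of whole brain of C57Bl/6J mice at postnatal day 0 (P0), with 1 WT and 2 *Mov10* Deletion IP libraries, each with an input library. The *Mov10* Deletion mouse carries a floxed *Mov10* allele that *Emx1*-Cre removes in excitatory neurons of neocortex and hippocampus, on top of a germline heterozygous *Mov10* mutation. Cells of the whole brain that never expressed the Cre were therefore part of each *Mov10* Deletion sample. With 1 WT library, no test between the genotypes was made, and the values of the 3 libraries are given side by side.

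miR-124 is a characteristic miRNA of neurons, in which it represses genes of progenitors and of non-neuronal cells. AGO2 carries the miRNA and finds targets mainly through the seed, the nucleotides near the 5’ end of the miRNA that pair with the 3’ untranslated region (UTR) of an mRNA. MOV10 is an RNA helicase that binds 3’UTRs and is known as a cofactor of AGO2, and the study asked how its loss changes AGO2 binding in brain.

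Read numbers per library are unknown, as ratios, p-values and scores were deposited. Each target cluster has a score whose meaning the methods do not give, with no value under 3 in any library. Each share has an exact 95% interval (Clopper-Pearson) for counting error alone, since clusters of 1 library are not replicates. The tissue label was checked by AGO2 clusters, called from all AGO2 reads with an IP over input ratio and p-value each. All 5 neuronal markers (*Tubb3*, *Map2*, *Dcx*, *Stmn2* and *Snap25*) and all 5 progenitor markers (*Sox2*, *Nes*, *Vim*, *Fabp7* and *Pax6*) held such clusters in every library. So did the 3 markers each of the oligodendrocyte lineage, endothelium and blood, 2 of 3 liver markers and 1 to 2 of 3 muscle markers. Enriched clusters (a log2 IP over input and a −log10 p of at least 3) were rarer, and in WT they were in 1 neuronal, 0 progenitor, 0 oligodendrocyte and 0 endothelial markers, against 2 of blood (*Hbb-bs* and *Hba-a1*) and 1 of liver (*Ttr*). In DEL1 and DEL2 they were in 4 and 3 neuronal, 4 and 1 progenitor and 3 and 1 oligodendrocyte markers. For endothelium the counts were 2 and 1, for blood 2 and 1, for liver 1 and 1 and for muscle 0 and 1. AGO2 clusters thus did not set neuronal markers apart from the others in WT, and the part of other cell types in the results below was not tested. In total, 433 of the member clusters of DEL1 overlapped one of DEL2, and all 433 had identical coordinates there, so positions in these libraries are not independent.

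Examples of target sites with a match to the seed are given from reported miR-124 targets and from the highest-scored or WT-only genes. They were picked for the match, so they do not show how often the sites of such genes hold it. The following 30-nt stretches are mRNA-sense sequence of annotated 3’UTRs, read from GRCm39, and capitals mark the 7-nt match to nucleotides 2 to 8 of miR-124-3p.
*Ptbp1*, chr10:79699351-79699380, plus strand: acatagccgctttctGTGCCTTacaaacca
*Lhx2*, chr2:38259439-38259468, plus strand: ttcaaagactgccacGTGCCTTaggaatac
*Lamc1*, chr1:153094799-153094828, minus strand: gtggcccttttcaatGTGCCTTcactttag
*Numa1*, chr7:101663522-101663551, plus strand: tcctgctgtccctcaGTGCCTTctctcagc
*Plxnb2*, chr15:89040197-89040226, minus strand: gagcaattcgcaaatGTGCCTTacaaagcc
*Tubb4a*, chr17:57387200-57387229, minus strand: tatgttcctgcccttGTGCCTTagttcagt
*Ccdc137*, chr11:120355095-120355124, plus strand: gttaccacctcctgtGTGCCTTctcttgtc
*Slc7a1*, chr5:148264730-148264759, minus strand: tttactgctttgtttGTGCCTTgaagcttc
*Gpatch8*, chr11:102367581-102367610, minus strand: gacaattttttaaatGTGCCTTgtgggttg
The sites of *Ptbp1*, *Lamc1* and *Numa1* were placed from the end of a GENCODE transcript that stops 336, 71 and 226 nt inside the outermost end of the gene.

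Clusters of miR-124-3p at gene ends held this match far more often than clusters of other miRNAs at gene ends. It lay inside 281 of 1585 placed clusters in WT (17.7%, interval 15.9 to 19.7), 213 of 1466 in DEL1 (14.5%, 12.8 to 16.4) and 118 of 751 in DEL2 (15.7%, 13.2 to 18.5). Clusters of other miRNAs held it in 2.39%, 1.7% and 1.88%. Over all 3 libraries, GTGCCTT was first of the 15499 7-nt words present when words were ranked by the difference between the miR-124-3p clusters (16.1% of 3802) and the clusters of other miRNAs (2.0% of 6047). The next words, TGTGCCT (11.8%) and TGCCTTA (8.86%), overlap it. Only the mRNA-sense strand was searched.

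The match also followed position, score and recurrence. Of the matches within 300 nt of a cluster centre, 308 of 448 lay within 50 nt in WT, or 68.8%, where an even spread would place 16.8%. The shares were 68.9% and 66.8% in the *Mov10* Deletion libraries. In WT the share of clusters with a match was 10.5% at scores under 4 and 35.4% (29.4 to 41.7) at scores of 16 or more, and the *Mov10* Deletion libraries went from 8.27% to 28.0% and from 9.25% to 29.1%. WT clusters found again in both *Mov10* Deletion libraries held it in 24.5% (20.4 to 28.9), and those found in neither in 11.4% (9.14 to 14.0). Of all 19124 gene ends read, 9.18% held the match anywhere in their last 1000 nt, against 27.8%, 25.9% and 26.8% of the ends of the target genes of the 3 libraries. With a 6-nt match to nucleotides 2 to 7, the clusters reached 30.7%, 25.7% and 27.3%, so most clusters at gene ends held neither match at the position read.

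**Figure D1:**
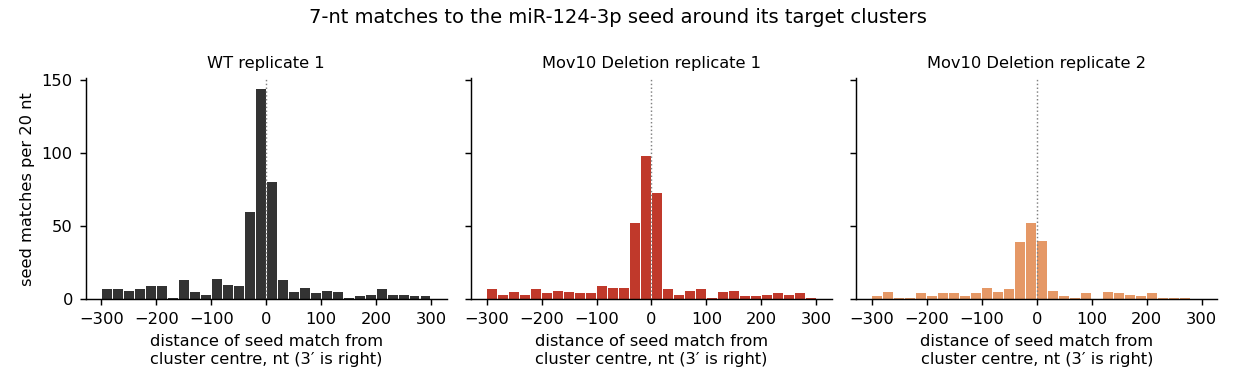
Number of 7-nt seed matches (vertical axis, per 20 nt) by distance from the centre of a miR-124-3p cluster at a gene end (horizontal axis, nt), with 1 panel for each library. The matches pile up at the centres, with 308 of 448 within 50 nt in WT, 241 of 350 in DEL1 and 143 of 214 in DEL2.

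The members were a minor share of the miR-124-3p clusters. They made up 17.2% of the 9312 miR-124-3p clusters of WT, 13.9% of 10630 in DEL1 and 15.3% of 4962 in DEL2, and the others lay elsewhere in genes or outside them. miR-124-3p accounted for 40.3% (38.8 to 41.8) of all assignments at gene ends in WT, 36.1% (34.6 to 37.6) in DEL1 and 40.1% (37.9 to 42.4) in DEL2. Elsewhere its share was 42.6% (41.9 to 43.3), 34.6% (34.1 to 35.2) and 36.3% (35.4 to 37.2). It was thus lower at gene ends than elsewhere in WT and higher in DEL2, and the intervals of DEL1 overlapped. Median widths were 84, 74 and 81.5 nt. Cluster centres were spread over the window, with median distances from the gene end of 446, 462 and 450 nt and quartiles of 204 and 712 nt in WT. Nothing changed sharply at the limit of the window. The clusters just inside it had a median score of 5.82 in WT (n = 114), and those just outside 5.89 (n = 129), against 5.0 and 5.46 in DEL1 and 5.0 and 5.0 in DEL2.

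Of 28 genes reported as miR-124 targets, 13 had a cluster at their end in WT, 9 in DEL1 and 8 in DEL2, and 15 had one in any library. For comparison, 6.6%, 6.05% and 3.4% of all protein-coding genes with a known strand were targets in these libraries. In all 3 libraries 2.06% were targets, and in any library 9.67%. These shares count every such gene, whether or not it is expressed in brain, so they are not matched to a list of expressed genes. The 28 genes were also chosen with earlier results of these data known and include *Numa1*, the gene that the study follows. Their counts are therefore not independent of these data. The 7 found in every library were *Ptbp1*, *Lhx2*, *Lamc1*, *Itgb1*, *Ptpn12*, *Rhog* and *Cd164*. *Ctdsp1*, *Sox9*, *Rcor1*, *Cdk6*, *Iqgap1*, *Slc16a1*, *Efnb1*, *Bace1*, *Nr3c2* and *Cebpa* had miR-124-3p clusters only away from their ends. *Actl6a*, *Stat3* and *Snai2* had none.

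*Ptbp1*, which encodes the splicing repressor that neurons lose as they differentiate, had the highest score among these genes in WT. In DEL1 *Ptpn12* (33.4) and *Lamc1* (28.5) scored higher, and in DEL2 *Itgb1* (12.2) and *Lamc1* (11.3). The *Ptbp1* site with the higher WT score (chr10:79863506-79863589 on mm10, 846 to 929 nt from the gene end) scored 64.0 in WT, 26.1 in DEL1 and 7.13 in DEL2. The AGO2 clusters there had log2 IP over input of 6.34, 5.95 and 6.46, which was far closer between libraries than the scores. The WT score was higher at 83.5% of all sites shared with DEL2. In whole brain, fewer cells with a target, less of it per cell and a difference between whole libraries cannot be told apart. A further *Ptbp1* site, 575 to 670 nt from the end, scored 19.1 in WT and 10.5 in DEL2 and was listed only under miR-9-5p in DEL1, with a score of 9.91. AGO2 was enriched at both *Ptbp1* sites in all 3 libraries.

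*Lamc1*, a laminin chain of the extracellular matrix, scored 36.6, 28.5 and 11.3, with AGO2 log2 of 5.22, 6.29 and 4.58. *Ptpn12*, a tyrosine phosphatase of adhesion signalling, scored 33.4, 33.4 and 7.69 at its main site. *Lhx2*, a LIM-homeodomain factor of forebrain progenitors, scored 29.8, 15.8 and 5.67. In these genes DEL2 was the lowest, and WT was the highest or level with DEL1. The AGO2 cluster at the *Lhx2* site was not enriched, with log2 of 2.76, 2.73 and 2.52.

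*Itgb1*, an integrin subunit, had 4 neighbouring sites. The one at 853 to 947 nt was found in all libraries, with scores of 10.3, 5.13 and 12.2, and miR-9-3p was listed there as well at 18.3, 17.8 and 4.8. The one at 468 to 549 nt scored 21.7 in WT and 7.86 in DEL1. *Cd164*, a sialomucin, scored 17.5, 11.8 and 7.38, and *Rhog*, a small GTPase, 10.2, 11.0 and 6.81.

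The remaining known targets were found in only some of the libraries, with scores of up to 10. *Numa1*, whose product bundles microtubules at spindle poles, scored 8.44 in WT (chr7:102014297-102014363 on mm10) and had no miR-124-3p cluster at its end in either *Mov10* Deletion library. AGO2 clusters overlapped the same site in all 3 libraries, with log2 of 4.66 in WT and 2.38 and 3.84 in *Mov10* Deletion, and were enriched in WT and DEL2. *Ezh2*, the Polycomb methyltransferase, scored 6.38, *Ctdsp2* 5.78, *Vamp3* 4.65 and *Ctdspl* 3.65, all in WT only. *Nr3c1*, the glucocorticoid receptor, scored 10 and *Neurod1* 3.95 in DEL1 only. *Jag1*, a Notch ligand, had a site in WT (3.51) and another in DEL2 (5.0). Of all WT clusters with scores from 8 up to 16, the class of *Numa1*, 71.2% were found again in DEL1 and 38.5% in DEL2, and of those from 4 up to 8 the shares were 38.0% and 19.9%.

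**Figure D2:**
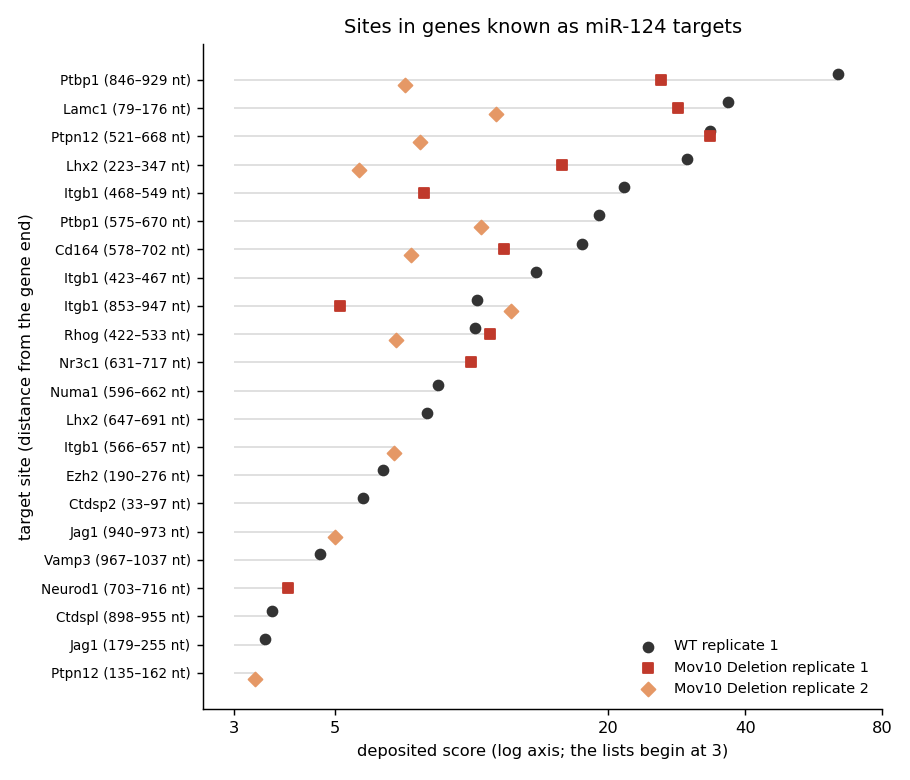
Deposited score (horizontal axis, log scale) of each miR-124-3p site at the ends of known target genes (vertical axis, with the distance of the site from the gene end in nt), with a circle for WT, a square for DEL1 and a diamond for DEL2. The top *Ptbp1* site falls from 64.0 in WT to 7.13 in DEL2, and the *Numa1* site has 1 point, at 8.44 in WT.

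The highest-scored sites were ranked by the lowest of the 3 scores of a site. *Ids*, which encodes a lysosomal sulfatase, was first with 463 in WT, 469 in DEL1 and 201 in DEL2, on AGO2 clusters with log2 of 6.48, 5.88 and 6.6. The same *Ids* clusters were also listed under 13, 22 and 5 other miRNAs, led by miR-7a-5p at 34.6, 52.2 and 22.0. This *Ids* site spans 987 to 1208 nt from the gene end, so most of it lies beyond the window. Its AGO2 cluster in WT (chrX:70344110-70344150 on mm10) did not overlap the one of DEL1 and DEL2 (chrX:70344050-70344109). The log2 of WT is therefore from another position than those of the *Mov10* Deletion libraries. *Rpl7a*, a ribosomal protein gene, had neighbouring sites with 248, 266 and 137 and with 382, 237 and 120. Both lie inside an annotated snoRNA gene (chr2:26912530-26912600 on mm10) within *Rpl7a*, so these clusters need not belong to the mRNA. An annotated small RNA (miRNA, snoRNA and the like) overlapped 4 of the 2478 distinct sites, of which 3 were in *Rpl7a*.

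The other genes at the top include several of the cytoskeleton. *Tuba1a*, the main alpha tubulin of developing neurons, scored 134, 130 and 59.1. *Kif1b*, a kinesin of axonal transport, scored 45.4, 55.4 and 63.7. It was the one gene among these 10 that scored highest in DEL2. *Tubb4a*, a beta tubulin, scored 124, 80.9 and 38.4, and *Arhgdia*, an inhibitor of small GTPases, 142, 126 and 48.4. The AGO2 clusters of *Tubb4a* (log2 of 3.96, 4.49 and 4.24) and *Arhgdia* (6.86, 5.56 and 4.78) were enriched in every library, while those of *Tuba1a* (2.61, 2.61 and 2.93) and *Kif1b* (2.25, 2.85 and 2.4) stayed under the log2 limit. *Plxnb2*, a semaphorin receptor, scored 121, 69.1 and 51.7, *Rnpepl1*, an aminopeptidase-like gene, 132, 65.7 and 53.9, and *Bex3* on the X chromosome 78.1, 53.6 and 53.1. *Smarca2*, the BRM ATPase of the BAF chromatin remodelling complex, scored 88.9, 101 and 37.4 with AGO2 log2 of 4.51, 4.64 and 7.14.

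Other gene lists give the targets by function. Their counts stand beside the 6.6%, 6.05% and 3.4% of all genes that were targets, and 2.06% in all libraries, with the same limit on expression. Of 18 actin and adhesion genes, 8 were targets in WT, 9 in DEL1 and 6 in DEL2, and 6 were targets in all libraries. Besides those above they included *Myh9*, non-muscle myosin (13.4, 16.6 and 8.88), *Vim*, the intermediate filament of progenitors (18.7, 5.0 and 6.0), and *Tln1*, talin (16.5 and 9.0 in WT and DEL1). Of 18 RNA-processing genes, 6, 4 and 3 were targets. *Ptbp2*, the neuronal paralogue of *Ptbp1*, scored 29.8, 14.7 and 5.0, and *Celf2* 11.1, 9.23 and 8.46. Of 18 BAF subunits, 3, 3 and 5 were targets, and only *Smarca2* was one in all 3 libraries.

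In the Argonaute pathway 4, 3 and 1 of 16 genes were targets. *Fxr1*, a relative of FMRP, scored 35.9, 18.2 and 9.0, and *Fxr2* 27.2 and 16.3 in WT and DEL1. *Mov10* had no miR-124-3p cluster. Of 15 microtubule genes that the study discusses, 4, 4 and 1 were targets and *Map1b*, a microtubule-associated protein of growing axons, was the one in all libraries (13.9, 3.88 and 3.1). Of 11 genes around the repressor REST, 2 were targets in WT, *Ctdsp2* and *Ctdspl*, and 0 in either *Mov10* Deletion library, and with so few genes these counts do not separate the list from the share over all genes or the genotypes from each other.

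Across all members, scores were highest in WT. The median was 6.14 in WT (quartiles 3.97 and 11.4), 5.49 in DEL1 (3.92 and 9.0) and 5.0 in DEL2 (3.81 and 7.26). Scores of 20 or more were held by 179 clusters in WT (11.2%), 109 in DEL1 (7.35%) and 37 in DEL2 (4.87%). The quartiles overlapped widely, and the *Mov10* Deletion libraries differed from each other as well. miR-124-3p clusters elsewhere had lower medians, 5.07, 4.55 and 4.0, and so did other miRNAs at gene ends, at 4.18, 4.0 and 4.0.

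Scores of sites shared by 2 libraries were moderately correlated. Scores of the 782 sites in WT and DEL1 had a Pearson r of 0.695 on the log2 scale and a Spearman rho of 0.553. For WT and DEL2 the values were 0.659 and 0.513 over 480 sites, and for the *Mov10* Deletion libraries 0.67 and 0.524 over 425. These correlations are across sites, which share each library’s depth and the minimum of 3, so they describe the lists only. At the shared sites, the WT score was a median of 1.31 times that of DEL1 and 2.14 times that of DEL2, and DEL1 was 1.72 times DEL2. The libraries of 1 genotype thus differed by more than WT and DEL1 did.

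**Figure D3:**
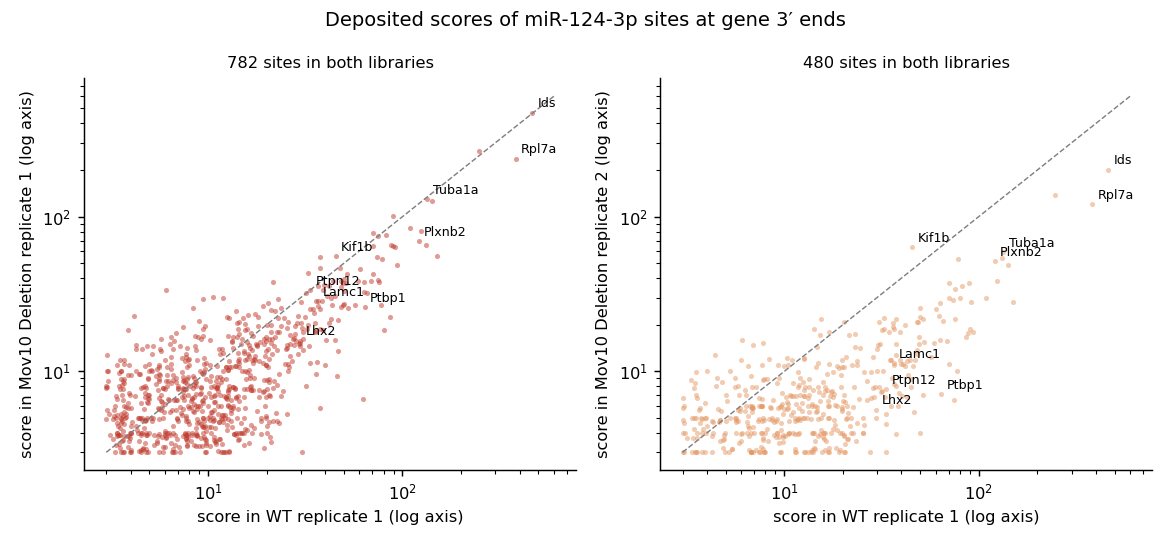
Score of each shared miR-124-3p site in WT (horizontal axis, log scale) against its score in DEL1 (left, 782 sites) or DEL2 (right, 480 sites), with a dashed line where both are equal. The score is higher in WT at 521 sites on the left and at 401 on the right, and *Ids* is the highest in both panels.

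Recurrence, an overlap of at least 1 nt with a miR-124-3p cluster of another library, was higher at gene ends than elsewhere. Of the 1604 WT clusters, 50.4% (48.0 to 52.9) were found again in DEL1, 31.4% (29.1 to 33.7) in DEL2 and 26.0% (23.9 to 28.2) in both, while 44.2% (41.8 to 46.7) were found in neither. Of the clusters of DEL1, 54.8% were found in WT and 29.2% in DEL2, and of those of DEL2, 65.5% in WT and 57.0% in DEL1. Each *Mov10* Deletion library thus shared more of its clusters with WT than with the other *Mov10* Deletion library. For DEL2 this rested on the overlap required, since with a reciprocal overlap of at least 50% its shares were 57.1% in WT and 57.0% in DEL1. miR-124-3p clusters elsewhere in WT recurred in 39.7% and 23.7%, and WT clusters of other miRNAs at gene ends recurred, under their own miRNA, in 31.3% and 16.0%. When the same number of highest-scored clusters was taken from each library, WT clusters recurred in 59.9% and 51.7%, DEL1 clusters in 63.4% (in WT) and 45.0% (in DEL2), and DEL2 clusters in 57.1% (in WT) and 46.7% (in DEL1).

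Recurrence rose with the score in every pair of libraries. WT clusters with scores under 4 were found in DEL1 in 22.6%, and those of 16 or more in 95.5%. In DEL2 the shares were 11.3% and 81.4%. In the other direction, WT held 32.7% of the DEL1 clusters under 4 and 98.8% of those of 16 or more, and 43.0% and 100% (55 of 55) for DEL2. A high-scored miR-124-3p cluster in *Mov10* Deletion brain without a counterpart in WT was therefore rare.

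**Figure D4:**
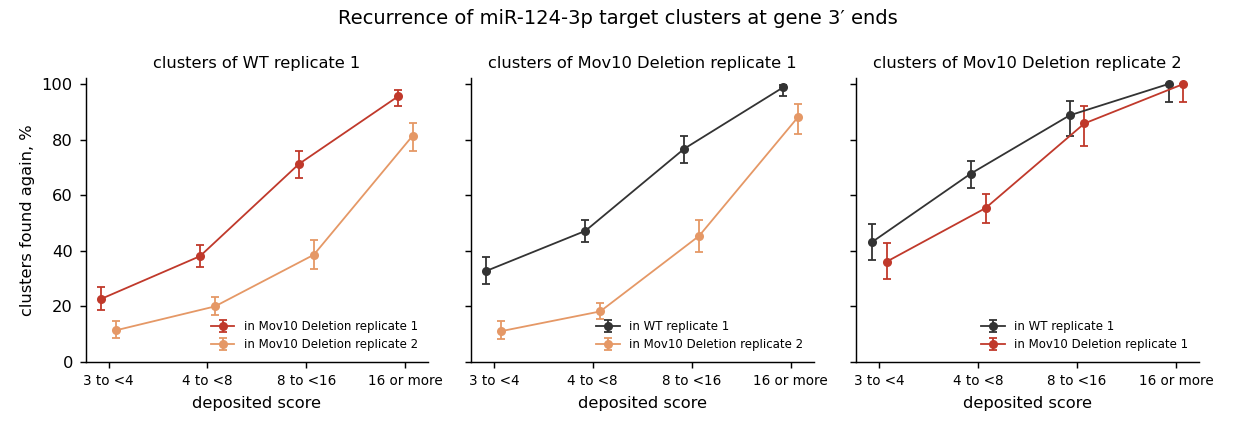
Percent of miR-124-3p clusters at gene ends that overlapped a miR-124-3p cluster of another library (vertical axis) by score (horizontal axis), with 1 panel for each library of origin, colours for the library compared, and exact 95% intervals as bars. WT clusters rise from 22.6% to 95.5% in DEL1 and from 11.3% to 81.4% in DEL2.

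Overlapping clusters were merged into 2478 distinct sites. Of these, 396 (16.0%) were in all 3 libraries, 709 (28.6%) in WT only, 641 (25.9%) in DEL1 only and 233 (9.4%) in DEL2 only. A further 386 were shared by WT and DEL1 only and 84 by WT and DEL2 only, and 29 (1.17%) by both *Mov10* Deletion libraries and not WT. Sites in all libraries had median scores of 15.4, 11.0 and 6.46. Sites in a single library had lower medians, 4.39 in WT, 4.08 in DEL1 and 4.0 in DEL2. The 29 sites of both *Mov10* Deletion libraries and not WT had medians of 6.39 in DEL1 and 3.9 in DEL2.

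By gene, there were 1416 targets in WT, 1298 in DEL1 and 729 in DEL2, and 2075 in any library. WT and both *Mov10* Deletion libraries shared 442 genes, which is 31.2% of the WT, 34.1% of the DEL1 and 60.6% of the DEL2 targets. In WT but neither *Mov10* Deletion library there were 518 genes (36.6% of the WT targets). Both *Mov10* Deletion libraries but not WT had 28 (2.16% of the DEL1 and 3.84% of the DEL2 targets). Of all genes these were 2.41% and 0.13%. The counts are unlike, since the first needs a cluster in a single library and the second in both. With WT set against DEL1 alone, 603 genes were in WT only and 485 in DEL1 only. Against DEL2 alone the numbers were 889 and 202.

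The WT-only genes with the highest scores were *Zfp655* (25.5), *Rfk* (21.6), *Ccdc137* (16.8), *Slc7a1* (16.3) and *Gpatch8* (16.2). *Zfp655* and *Rfk* were WT-only because of the window. *Mov10* Deletion clusters overlapped their sites with scores of 5.34 and 4.0 in *Zfp655* and 4.77 (DEL1) in *Rfk*, but lay more than 1000 nt from the gene end. *Ccdc137*, *Slc7a1*, an amino acid transporter, and *Gpatch8* had no miR-124-3p cluster at the site in *Mov10* Deletion. AGO2 clusters were present in all 3 libraries at the *Ccdc137* (log2 of 2.93, 4.38 and 1.25) and *Slc7a1* (1.42, 1.89 and 2.48) sites, and in none at the *Gpatch8* site.

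Among the genes of both *Mov10* Deletion libraries and not WT, *Eml1*, a microtubule-binding protein, scored 37.8 and 17.2, but a WT cluster of 21.6 overlapped its site from just beyond the window. *Lrfn4*, a synaptic adhesion protein, scored 11.0 and 6.0, *Celf4*, a neuronal RNA-binding protein, 9.59 and 4.5, and *Zfp804a* 7.33 and 5.0. *Fam174b* had a different site in each library (5.43 and 4.64). WT had an AGO2 cluster at the *Lrfn4* site with a log2 of 4.56, against 3.12 and 4.42 in *Mov10* Deletion. At the *Celf4* site the log2 values were -0.161 in WT, 0.269 in DEL1 and 0.928 in DEL2. The *Fam174b* site of DEL1 had 3.34, 2.38 and 2.25, and none of these AGO2 clusters was enriched. No library had an AGO2 cluster at the *Zfp804a* site or at the *Fam174b* site of DEL2.

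Most genes had 1 site. Of the 2075 genes, 1691 (81.5%) had 1, 329 had 2, 44 had 3, 9 had 4 and 2 had 5. *Marcksl1*, a membrane-bound regulator of actin, had 5 sites, but only 1 of them was in all libraries (26.5, 15.1 and 8.67, 281 to 348 nt from the end), and the others scored 5.16 or less. *Ywhag*, a 14-3-3 protein, had 5 sites, all in DEL1 only, at 3.38 to 14.8. *Arf3*, a GTPase of the Golgi, had a strong site in all libraries (41.7, 20.4 and 10.9) and 3 adjoining sites in DEL1 only. *Ankrd13a* had 4 sites, none in DEL2. Sites that adjoin without overlap were counted separately.

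Many members were also listed under another miRNA. This held for 324 clusters in WT (20.2%), 243 in DEL1 (16.4%) and 86 in DEL2 (11.3%). The most frequent partners in WT were miR-9-5p, which is abundant in neural progenitors (64 clusters), miR-125b-5p (55) and let-7c-5p (34). In DEL1 miR-9-5p (35) and miR-125b-5p (27) led, and in DEL2 miR-125b-5p (12) and miR-9-5p (11). The same miRNAs thus led in each library.

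The miR-124-3p clusters at gene ends lay on AGO2 clusters far more often than those elsewhere. An AGO2 cluster of the same library overlapped 82.9% of them in WT, 73.0% in DEL1 and 81.3% in DEL2, and elsewhere 66.5%, 51.0% and 55.6%. An enriched AGO2 cluster overlapped 485 of 1604 in WT, or 30.2% (28.0 to 32.6), where 9.43% of all AGO2 clusters at gene ends were enriched. It overlapped 466 of 1482 in DEL1, or 31.4% (29.1 to 33.9), beside 15.4% of all AGO2 clusters there, and 243 of 760 in DEL2, or 32.0% (28.7 to 35.4), beside 8.99%. The 3 shares of target clusters lay within each other’s intervals although the shares of enriched AGO2 clusters differed. The latter count AGO2 clusters and not target clusters, so both kinds of share are not on the same scale. Elsewhere 13.9%, 13.1% and 13.0% of the miR-124-3p clusters lay on an enriched AGO2 cluster.

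This was not particular to miR-124-3p. Clusters of other miRNAs at gene ends lay on enriched AGO2 clusters in 34.1% (32.2 to 36.1) in WT, above miR-124-3p, in 30.5% (28.7 to 32.3) in DEL1, near it, and in 25.2% (22.7 to 27.8) in DEL2, below it. The share rose with the score. In WT it was 14.5% under 4, 21.1% from 4 up to 8, 36.8% from 8 up to 16 and 68.4% at 16 or more. At 16 or more it was 69.4% and 70.9% in the *Mov10* Deletion libraries, from 17.9% and 21.5% under 4.

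**Figure D5:**
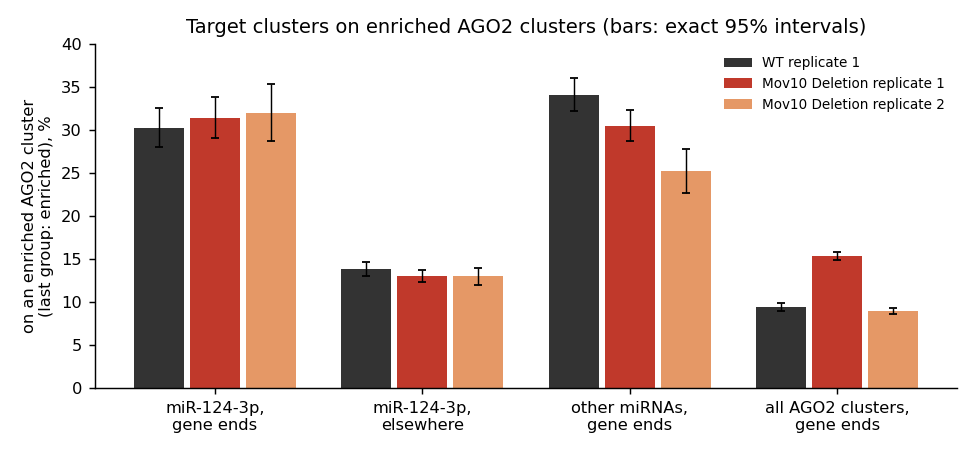
Percent of target clusters that overlapped an enriched AGO2 cluster of the same library (vertical axis, exact 95% intervals as bars) for miR-124-3p at gene ends, miR-124-3p elsewhere and other miRNAs at gene ends, and percent of all AGO2 clusters at gene ends that were enriched. miR-124-3p at gene ends lies between 30.2% and 32.0% in the 3 libraries, and miR-124-3p elsewhere between 13.0% and 13.9%.

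AGO2 clusters were present also where the chimeric reads named no miR-124-3p cluster. The AGO2 clusters of DEL1 and DEL2 numbered 616014 and 616005 and had the same coordinates at most of the named sites. Their presence in DEL1 and in DEL2 is therefore not independent. The 709 WT clusters found in neither *Mov10* Deletion library lay on AGO2 clusters in 72.1% in WT, and their positions did so in 68.3% and 68.1% in the *Mov10* Deletion libraries. Enriched ones were there in 19.3%, 22.0% and 15.1%. The 417 WT clusters found in both had AGO2 clusters in 94.0%, 94.2% and 94.2%, and enriched ones in 50.4%, 55.6% and 46.8%. Of the 29 sites of both *Mov10* Deletion libraries and not WT, 69.0% had an AGO2 cluster in WT, and 72.4% and 75.9% in *Mov10* Deletion, with 5, 11 and 8 enriched. At sites that lacked a miR-124-3p cluster in one genotype, AGO2 clusters of that genotype were thus about as frequent as in the other.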

How the data were processed

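AGO2 chimeric eCLIP was analysed from whole P0 brain, with 1 WT and 2 *Mov10* Deletion IP libraries. The 3 input libraries entered only through the deposited ratios. Per the labels and methods, the authors used UMI-tools 1.1.1, cutadapt 3.2, STAR 2.7.7a on mm10 and, per the submitters' processing notes, Bowtie 1.2.3, and called AGO2 clusters with CLIPper. The authors deposited each AGO2 cluster with its log2 IP over input fold and its p-value as −log10. Target clusters were deposited with a miRNA and a score.

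Gene ends were the last 1000 nt of RefSeq protein-coding genes on mm10, of which 21468 of 21900 had a strand (17492 from RefSeq promoters, 3976 from GENCODE by symbol). Sequence was read from GRCm39. No coordinates were converted, and each cluster was placed by its distance from the gene’s GENCODE end on GRCm39, which misplaces clusters where the annotated ends differ. Printed sites were placed from any protein-coding transcript end. A cluster in several genes counted for each gene. Sites are overlapping clusters merged over libraries.

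The members and gene lists were chosen with earlier results of these data known. Named genes are known miR-124 targets with a cluster, the 10 genes with the highest lowest-of-3 score, the 5 with the highest score in WT only, the 5 with the highest lower-of-2 score in both *Mov10* Deletion libraries only, the 5 with most sites, and up to 4 examples from each other list by highest score. One gene that met these criteria is not reported here. Scripts ran in Python 3.11.15 with pandas 2.3.3, numpy 2.4.6 and scipy 1.17.1 and were tested on simulated data. Windows, overlaps, score and enrichment limits were varied, as was each *Mov10* Deletion library left out. No p-values were computed. Depth is unknown.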

Additional observations from a re-analysis of the deposited data

How the results depend on the processing

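Of 118 values recomputed under other settings, 60 stayed within counting error or 1.5 times the value reported and 58 moved. Requiring 50% of a cluster inside the gene end moved none of its 9. With the last 500 nt, clusters numbered 945, 844 and 435 (WT, DEL1 and DEL2), target genes 903, 798 and 448, and genes in all libraries 272. With the last 2000 nt, clusters numbered 2543, 2417 and 1202, *Mov10* Deletion genes 1970 and 1098, genes in all libraries 670 and those in *Mov10* Deletion but not WT 61, and 51.9% of DEL1 clusters were in WT. At scores of at least 4, *Mov10* Deletion genes not in WT numbered 18, DEL2 clusters recurred in 69.7% (WT) and 61.5% (DEL1), enriched AGO2 clusters lay under 35.6%, 36.3% and 36.5%, and seed matches in 20.2% (WT) and 16.8% (DEL1). With clusters listed under miR-124-3p alone, genes in all libraries were 283, *Mov10* Deletion genes not in WT 57, and the enriched share 24.8% in WT and 27.2% in DEL1. With a reciprocal overlap of 50%, WT clusters recurred in 43.0%, 26.9% and, in both, 22.1%, and WT held 46.6% of DEL1 and 57.1% of DEL2 clusters. With equal numbers of highest-scored clusters, the shares were 59.9%, 51.7% and, in both, 40.3% for WT, 63.4% and 45.0% for DEL1 and 57.1% and 46.7% for DEL2. Enriched shares were 23.9%, 26.3% and 25.0% at a −log10 p of at least 5, 43.9%, 45.1% and 43.0% at a log2 of at least 1, and 27.2% in DEL1 where AGO2 covered 50% of the cluster. A 6-nt match gave 30.7%, 25.7% and 27.3%. Placement from any transcript end, chosen after seeing the data, gave 21.3%, 17.1% and 19.6%. Where 1 *Mov10* Deletion library was left out (DEL1, then 2), WT-only genes numbered 889 and 603, genes in WT and *Mov10* Deletion 527 and 813, *Mov10* Deletion genes not in WT 202 and 485, and WT clusters found again 31.4% and 50.4%. No paired analysis was possible because the genotypes share fewer than 2 replicate numbers and no test was run. Unknown depth, 1 WT library and the undescribed score limit every comparison between libraries.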
